A study of Mus musculus with 6 samples.

Results

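The genes described here are 10 regulators and markers of the switch between epithelial and mesenchymal cell states, the cadherin genes Cdh1, Cdh2 and Cdh11, the filament gene Vim, and the transcription factor genes Zeb1, Zeb2, Snai1, Snai2, Twist1 and Prrx1. They were picked by symbol, and all 10 were present among the 34745 genes of the expression table. RNA sequencing had been run on 6 libraries of P19, a mouse embryonal carcinoma line grown in serum-containing medium. By their labels, 3 libraries came from untreated control cells and 3 from cells treated with the peptide PDTLN1, with no dose or duration given. All groups are the same line with no genetic change named, and no label says that libraries of a group came from separate cultures, so each p-value reflects library-to-library spread that may be technical.

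Cadherins are calcium-dependent adhesion receptors that bind the same or related cadherins on neighbouring cells and are tied to actin through catenins. In the epithelial to mesenchymal transition, a process used at gastrulation and in neural crest emigration, Snail, Zeb and Twist proteins repress the epithelial cadherin gene Cdh1, while Cdh2 and the intermediate filament protein vimentin are typical of the mesenchymal state. Pluripotent cells of the epiblast are epithelial and carry E-cadherin, and the transition accompanies their entry into mesoderm.

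Libraries held between 10381307 and 11663081 gene counts. The labelled cell type was matched by its markers: Pou5f1, the central pluripotency factor, averaged 1462 CPM in controls (counts scaled to library size, with TMM factors) and 1351 CPM after PDTLN1, and the naive-state marker Zfp42 was near 0, at 0.311 and 0.218 CPM. Fibroblast markers, which share the mesenchymal programme, were detectable: the 9 summed to 86.1 to 89.9 CPM in controls and 66.8 to 81.3 CPM after PDTLN1, of which Col1a1 made up 41.97 and 36.7 CPM on average, while Lum averaged 0.246 and 0.114 CPM and Fap 0.0639 CPM in controls with 0 counts after PDTLN1. Their part in the values below was not tested. No retinal gene of 9 had enough counts to be tested (the extraction text speaks of retinas), and Crx, Arr3 and Gngt1 were at 0 in all libraries. Markers of neural crest and paraxial mesoderm, tissues in which Snail genes act, summed to 19.5 to 28.7 CPM in controls and 22.3 to 24.7 CPM after PDTLN1. Most of this was Foxd3, at 16.7 and 17.4 CPM on average, with the next highest, Tfap2a, at 2.58 and 2.76 CPM. Sox10 averaged 0.277 and 0.411 CPM and Pax3 0.493 and 0.324 CPM. In such bulk libraries a change in the share of a cell type and a change in RNA per cell cannot be told apart.

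Transcripts of both states were present in the bulk libraries of untreated P19 cells, which cannot show whether single cells held both. Within a gene the comparison of libraries needs no length, but levels of different genes were compared per kilobase, here as CPM per kilobase of all annotated exons of the gene. On that scale vimentin was the most abundant, at 70.2 ± 3.93 in controls (SD, n = 3). Cdh2, neural cadherin, followed at 14.4 ± 0.324 and Cdh1, epithelial cadherin, at 11.8 ± 0.730, and the lowest control library for Cdh2 (14.1) lay above the highest for Cdh1 (12.3). The basic helix-loop-helix factor gene Twist1 stood at 7.09 ± 0.894 and Zeb2, a zinc finger and homeodomain repressor gene, at 5.75 ± 0.614 (SD, n = 3 each). Cdh11, the cadherin of mesenchyme and bone-forming cells, averaged 2.07, with Snai1, Snai2 and Zeb1 at 1.58, 1.54 and 1.46; each of these 4 overlapped its neighbour in the order. Prrx1, a homeobox gene of limb and craniofacial mesenchyme, was lowest, at 0.202 ± 0.00699 (SD, n = 3).

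**Figure D1:**
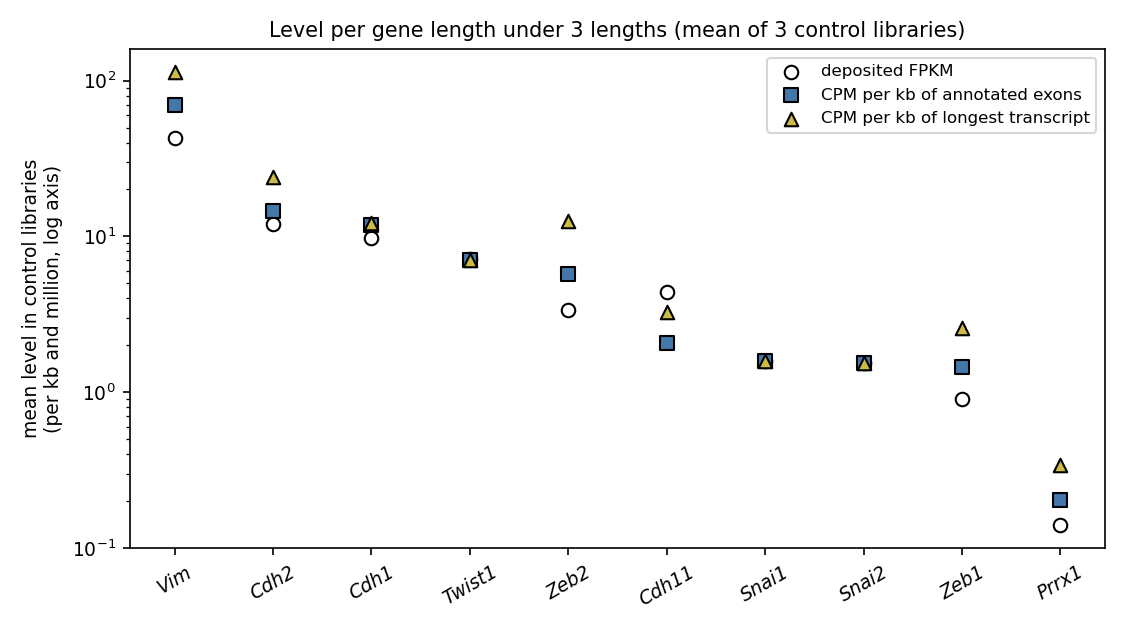
Mean level of the 10 genes in the 3 control libraries, scaled by length and library total, on a log axis, under 3 choices of gene length. Vim is highest and Prrx1 lowest on every scale, while Zeb2 lies at 3.36 deposited FPKM, 5.75 per kilobase of annotated exons and 12.6 per kilobase of the longest transcript.

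The gene length behind the deposited FPKM values (fragments scaled by gene length and library total) moves this order. The counts and FPKM of Zeb2 imply a length of 34118 bases, while its 29 annotated transcripts cover 19942 bases of exons and the longest has 9124 bases. For Vim the implied length was 7809 bases against a longest transcript of 2926 bases, and for Prrx1 15969 against 6527 bases. For the single-transcript genes Snai1, Snai2 and Twist1 the implied lengths were 1621, 2031 and 1616 bases, close to the annotated 1621, 2021 and 1628 bases. Across 11555 genes with several annotated transcripts and at least 10 counts in every library, the implied length had a median of 1.29 times the annotated exons, and it was longer than them in 77.7%. Cdh11 went the other way: its implied length of 4216 bases was shorter than its 8904 bases of exons and its longest transcript of 5647 bases, so it stood higher in deposited FPKM than per kilobase of exons. Its annotated span, 102632095 to 102785642, is wider than the one given with the counts, 102632995 to 102785111. Its annotated lengths may therefore not be those of the gene model counted. Per longest transcript, Zeb2 took the third place at 12.6, overlapping Cdh1 at 12.2, where deposited FPKM put it sixth at 3.36, below Cdh11 at 4.36. Between Zeb2 and Zeb1 the order did not depend on the length: Zeb2 was higher on all 3 scales, at 3.36 and 0.908 deposited FPKM and at 12.6 and 2.58 per longest transcript.

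PDTLN1 was then compared with control, the contrast of the study's design, which asks for genes whose mRNA level differs after the peptide. None of the 10 genes passed an adjusted p of 0.05 in edgeR's quasi-likelihood test, nor in DESeq2's Wald test. In the same fit 3 of 13836 tested genes passed (0.0217%), all higher after PDTLN1, and DESeq2 called 0.112% of the genes to which it gave an adjusted p. All 10 genes passed the filter on low counts. The log2 fold change was above 0 for 7 and below 0 for 3, with a median of 0.098 against -0.00095 over all tested genes. At an unadjusted edgeR p under 0.05 there were 3, Zeb1, Cdh11 and Prrx1, against 3.99% of all tested genes. The same 3 were higher in all PDTLN1 libraries than in the highest control library, a separation in that direction found for 4.81% of all tested genes and in either direction for 9.79%. Because the list was assembled with results of these libraries known, these shares describe it and are no test of it.

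**Figure D2:**
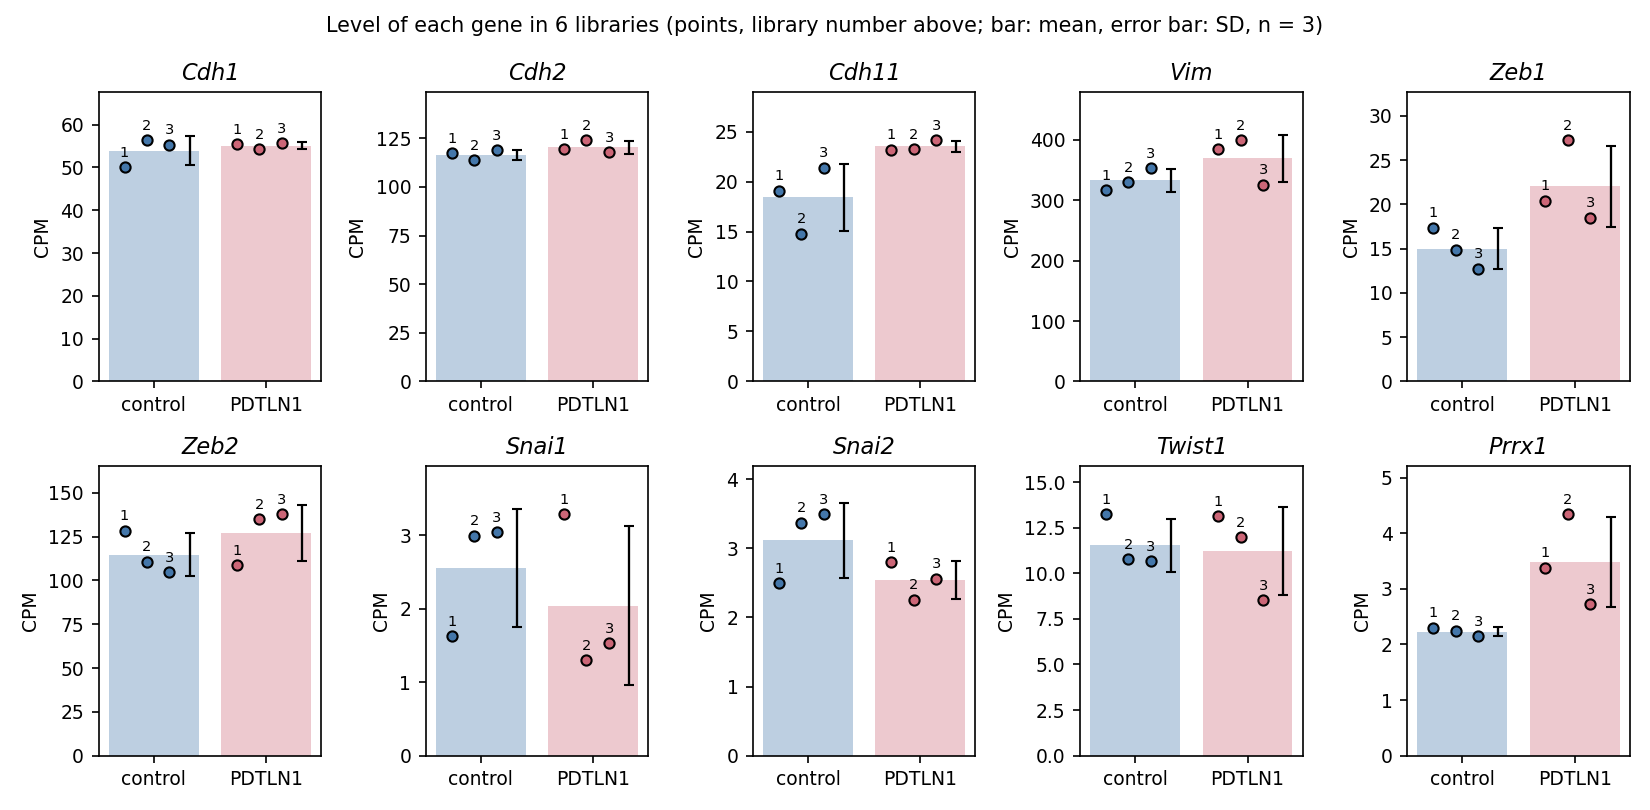
Level of each of the 10 genes in CPM (vertical axis from 0) in 3 control and 3 PDTLN1 libraries; points are libraries with their numbers, bars are means and error bars the SD. Cdh1 and Cdh2 are level across groups, Zeb1, Cdh11 and Prrx1 separate the groups, and Snai1 is split within both groups.

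The epithelial cadherin gene and its neural counterpart were the steadiest of the 10. Cdh1 was at 50.1, 56.4 and 55.3 CPM in control libraries 1 to 3 and at 55.4, 54.2 and 55.7 CPM in PDTLN1 libraries 1 to 3. The groups overlapped, with control library 1 lowest of all. The fold change was 1.02 with a 95% interval of 0.902 to 1.16 (edgeR adjusted p 0.990). Cdh2 was at 117, 114 and 119 CPM in controls and 119, 124 and 118 CPM after PDTLN1, again with overlap. Its fold change of 1.03 had an interval of 0.940 to 1.13 (edgeR adjusted p 0.989), so a change of 1.2-fold or more in either cadherin lies outside these intervals. The ratio of Cdh2 to Cdh1 counts, the usual summary of a cadherin switch, was 2.17 ± 0.162 in controls and 2.19 ± 0.0903 after PDTLN1 (SD, n = 3 each), with libraries between 2.02 and 2.34.

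Cdh11 differed more. This gene encodes OB-cadherin, a type II cadherin of mesenchymal cells, and stood at 19.1, 14.8 and 21.4 CPM in controls and 23.2, 23.3 and 24.1 CPM after PDTLN1. The PDTLN1 libraries were close together and all above the highest control, while the controls were spread over a wider range. The means were 18.4 ± 3.35 and 23.5 ± 0.528 CPM (SD, n = 3 each), a fold change of 1.28 with a 95% interval of 1.02 to 1.59. It did not pass (edgeR unadjusted p 0.0338, adjusted p 0.989). Control library 2 carried much of the difference: the log2 fold change was 0.35 with all libraries and 0.22 without it. Of the transcripts' 36-base words, 3.94% also occurred in transcripts of another gene, the highest share among the 10.

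Vimentin, the main intermediate filament of mesenchymal cells, was at 316, 329 and 353 CPM in controls and 384, 399 and 326 CPM after PDTLN1. PDTLN1 libraries 1 and 2 lay above every control, and PDTLN1 library 3 lay within the controls. The fold change was 1.11 with a 95% interval of 0.977 to 1.26 (edgeR adjusted p 0.989), and the log2 fold change moved from 0.15 to 0.24 without PDTLN1 library 3 and to 0.09 without PDTLN1 library 2.

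Zeb1 and Zeb2 encode paired zinc finger repressors that bind E-box sequences. Zeb1 was at 17.3, 14.9 and 12.7 CPM in controls and 20.4, 27.2 and 18.5 CPM after PDTLN1. Every PDTLN1 library lay above every control, with PDTLN1 library 2 far above the others of its group. The means were 15.0 ± 2.32 and 22.05 ± 4.60 CPM (SD, n = 3 each), and the fold change of 1.47 had an interval of 1.12 to 1.94. This was the smallest p among the 10 genes, and it did not pass (edgeR unadjusted p 0.0112, adjusted p 0.989). Without PDTLN1 library 2 the log2 fold change was 0.38 in place of 0.56.

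Zeb2 was at 128, 111 and 105 CPM in controls and 109, 135 and 138 CPM after PDTLN1. The groups overlapped, with control library 1 among the high values and PDTLN1 library 1 among the low ones. The fold change was 1.11 with an interval of 0.935 to 1.32 (edgeR adjusted p 0.989). Counts of Zeb2 exceeded those of Zeb1 by 7.40, 7.44 and 8.25 times in controls and by 5.33, 4.96 and 7.44 times after PDTLN1. Whether the fold changes of the paralogs differ from each other was not tested. Both genes overlap transcripts of the opposite strand, Gm10125 at Zeb1 and Zeb2os at Zeb2, and how counting treated strand is not given in the sources used; these partners had at most 3 and 5 counts in any library.

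**Figure D3:**
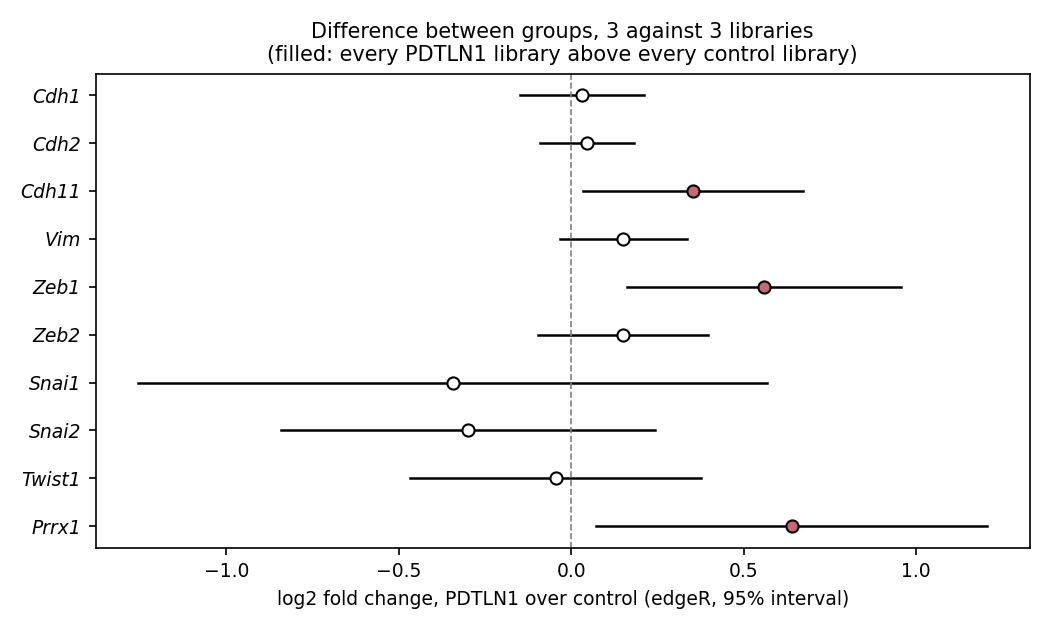
Log2 fold change of PDTLN1 over control for the 10 genes, with 95% intervals from edgeR over 3 against 3 libraries; filled points mark genes for which every PDTLN1 library was above every control library. The intervals of Zeb1, Cdh11 and Prrx1 lie above 0 before adjustment, and that of Snai1 is the widest, from -1.26 to 0.57.

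The Snail genes encode zinc finger repressors that recognise the E-box CAGGTG, whose reverse complement is CACCTG, and Snai1 is known to act on its own promoter. Snai1 had 17, 32 and 34 counts in controls and 34, 15 and 18 counts after PDTLN1, or 1.63, 3.00 and 3.04 CPM and 3.29, 1.30 and 1.54 CPM. It was low, at 1.30 to 1.63 CPM, in control library 1 and PDTLN1 libraries 2 and 3, and higher, at 3.00 to 3.29 CPM, in the other three. The exact Poisson 95% intervals, which cover counting error only, were 9.90 to 27.2 for the 17 counts and 23.5 to 47.5 for the 34 counts of control library 3, which overlap. The fold change was 0.788 with an interval of 0.419 to 1.48 (edgeR adjusted p 0.989), the widest of the 10 on the log2 scale. Without both libraries numbered 1 the log2 fold change was -1.09 (edgeR adjusted p 0.154) in place of -0.34. In that comparison treatment cannot be told apart from the division between libraries described below.

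Snai2, which encodes Slug, had 26, 36 and 39 counts in controls and 29, 26 and 30 counts after PDTLN1, or 2.49, 3.37 and 3.49 CPM and 2.80, 2.26 and 2.56 CPM. Control libraries 2 and 3 were highest, and control library 1 lay among the PDTLN1 libraries. Snai2 had a fold change of 0.813 with an interval of 0.558 to 1.18 (edgeR adjusted p 0.989). Per kilobase the Snail pair did not differ beyond its spread in controls, at 1.58 ± 0.495 and 1.54 ± 0.270 (SD, n = 3 each).

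Promoter windows were given by RefSeq on build GRCm38.p6 and reached from 250 bases before to 50 bases after a gene's start. The search covered 8 windows of 5 of the 10 genes (Prrx1, Vim, Zeb2, Snai1 and Twist1). Windows of Cdh2 and Zeb1 were left out of the search, so its result does not cover these genes. Cdh1, Cdh11 and Snai2 were not matched to a window. The E-box was searched on both strands as CAGGTG and CACCTG, and it was present in 1 of the 8 windows, that of Snai1, and in 20.2% of 32851 windows of the same length. Several of the 8 belong to Zeb2 and some of those overlap, so the 8 are not separate promoters and the shares are not compared. Upstream stretches of 250 bases are shown for a pair of genes, Snai1 because it varied most between libraries and holds the E-box (in capitals), and Vim because it was the most abundant of the 10 and its window holds none. That of Snai1 covers chr2:167537945-167538194 on the plus strand, with the E-box 126 to 121 bases before the start, and that of Vim covers chr2:13574061-13574310 on the plus strand.
Snai1: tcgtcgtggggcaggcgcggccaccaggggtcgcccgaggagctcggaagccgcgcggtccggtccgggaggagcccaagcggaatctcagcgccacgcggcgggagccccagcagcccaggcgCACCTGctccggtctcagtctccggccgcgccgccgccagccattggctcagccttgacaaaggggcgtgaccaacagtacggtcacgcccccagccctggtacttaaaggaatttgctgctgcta
Vim: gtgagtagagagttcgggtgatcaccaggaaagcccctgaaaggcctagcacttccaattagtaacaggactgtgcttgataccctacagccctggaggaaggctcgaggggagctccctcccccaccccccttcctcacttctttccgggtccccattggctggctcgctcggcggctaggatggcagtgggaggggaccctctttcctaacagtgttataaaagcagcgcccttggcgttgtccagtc
The Snai1 window was rich in CpG, with 34 such dinucleotides in 300 bases and 70.0% G and C, against 11 and 59.3% for Vim and a median of 7 CpG over all windows. A match describes letters only, and no binding was measured.

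Twist1 was at 13.2, 10.8 and 10.7 CPM in controls and 13.1, 12.0 and 8.53 CPM after PDTLN1. PDTLN1 library 3 was the lowest of the 6 and the rest of that group lay within the controls. Twist1 had a fold change of 0.970 with an interval of 0.724 to 1.30 (edgeR adjusted p 0.992).

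Prrx1 had 24 counts in each control library and 35, 50 and 32 counts after PDTLN1, or 2.30, 2.25 and 2.15 CPM and 3.38, 4.34 and 2.73 CPM. The 3 controls were nearly equal and the PDTLN1 libraries all lay above them, with library 2 highest, as for Zeb1. The exact Poisson 95% interval for 24 counts was 15.4 to 35.7, and that for the 50 counts of PDTLN1 library 2 was 37.1 to 65.9, while the intervals for 35 and 32 counts, from 24.4 and 21.9, overlapped that of the controls. The fold change was 1.56, the largest of the 10, with an interval of 1.05 to 2.31, and it did not pass (edgeR unadjusted p 0.0310, adjusted p 0.989). The log2 fold change was 0.64 with all libraries and 0.45 without PDTLN1 library 2.

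Snai1, Snai2 and Zeb2 lay above or below their own means along a division of the libraries that crosses the treatment. How many of all tested genes divide in this way is not given here. Snai1 in control library 1 and PDTLN1 libraries 2 and 3 lay between 0.37 and 0.66 log2 units below its own mean, at -0.37, -0.66 and -0.45, and in control libraries 2 and 3 and PDTLN1 library 1 it lay above, at 0.44, 0.46 and 0.57. Snai2 went the same way as Snai1, at -0.15, -0.29 and -0.12 in the first 3 libraries and at 0.26, 0.30 and 0.0038 in the second. The exact Poisson 95% intervals for its lowest and highest counts, 26 and 39, were 17.0 to 38.1 and 27.7 to 53.3, which overlap. Whether the spread of Snai2 exceeds counting error was not tested. Zeb2 stood the other way round, at 0.09, 0.17 and 0.20 in the first 3 libraries and at -0.12, -0.20 and -0.14 in the second. Genes of the ATF4 and amino acid stress response, a list of 26 chosen after the data were seen, all of them tested, averaged -0.30, -0.33 and -0.21 in control library 1 and PDTLN1 libraries 2 and 3, and 0.15, 0.36 and 0.33 in control libraries 2 and 3 and PDTLN1 library 1. Their summed level was 4139 to 5552 CPM in controls and 4179 to 5280 CPM after PDTLN1. Their part in the levels of Snai1, Snai2 and Zeb2 was not tested. Zeb1, Prrx1 and Cdh11 did not divide the libraries in this way: they were higher in PDTLN1 library 1 than in every control, as in PDTLN1 libraries 2 and 3.

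**Figure D4:**
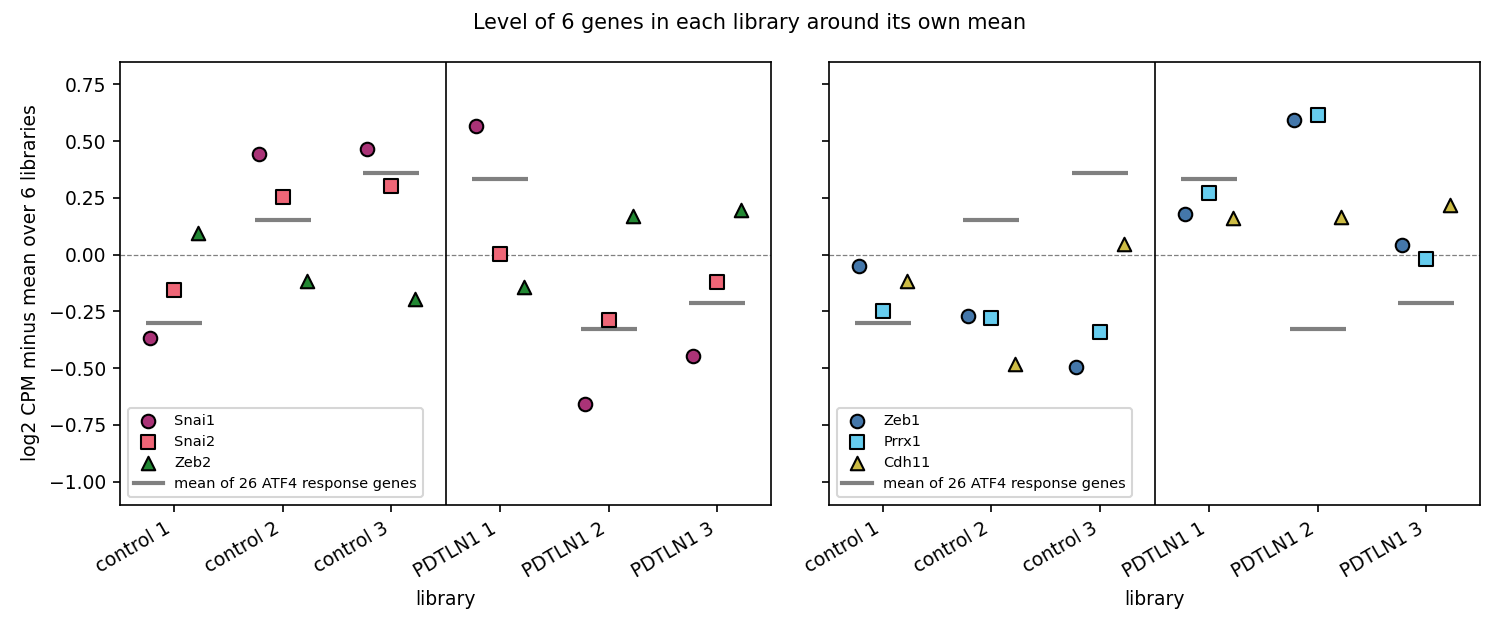
Log2 CPM of 6 genes in each library minus the gene's own mean over the 6 libraries; grey bars are the mean of 26 ATF4 response genes. Left, Snai1 and Snai2 lie on the same side of 0 as the grey bar in each library and Zeb2 on the opposite side. Snai2 is close to 0 in PDTLN1 library 1. Right, the PDTLN1 libraries all lie above the controls for Zeb1, Prrx1 and Cdh11.

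Other genes of adhesion and of both cell states were examined in 6 lists, none of which held a gene past edgeR's adjusted threshold or DESeq2's. The lists were chosen with earlier results of these data known, so counts within them are no test. Among 13 tested of 18 other cadherin genes, the median log2 fold change was 0.039, positive for 9 and negative for 4, with 0 at an unadjusted edgeR p under 0.05. The smallest p-values belonged to Cdh8, at 4.22 and 5.30 CPM, Cdh6, at 4.42 and 5.55 CPM, and Cdh24, at 17.8 and 15.7 CPM in controls and after PDTLN1. The list's median moved with the libraries, to between 0.11 and 0.22 without control library 1, control library 3, PDTLN1 library 1 or PDTLN1 library 3 and to 0.21 without both libraries numbered 1, and was 0.24 with no filter beyond 1 count. Of 13 tested catenin and junction genes the median was 0.033, and 3 had an unadjusted edgeR p under 0.05, against 3.99% of all tested genes. Of these, Mllt4, the gene of the actin-binding junction protein afadin, was at 240.5 ± 20.2 and 292 ± 32.1 CPM, and Jup, which encodes plakoglobin, at 77.6 ± 1.99 and 68.9 ± 1.66 CPM (SD, n = 3 each). Pkp4 averaged 112 and 125 CPM. Pvrl3, the gene of the adhesion receptor nectin-3, named after its values were seen, was at 80.4, 90.3 and 94.9 CPM in controls and 42.7, 87.5 and 41.3 CPM after PDTLN1, with PDTLN1 library 2 among the controls. Its log2 fold change of -0.63 did not pass (edgeR adjusted p 0.989), and it was called when that library was left out (-1.08, edgeR adjusted p 0.0136). Beta-catenin, Ctnnb1, averaged 629 and 576 CPM and alpha-catenin, Ctnna1, 393 and 398 CPM, both with overlapping groups.

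The 30 tested epithelial genes of 36 had a median log2 fold change of 0.011, 16 of them positive and 14 negative. An unadjusted edgeR p under 0.05 was found for 2 of them, Krt8 and Ppl, against 3.99% of all tested genes. The keratin gene Krt8 averaged 21.7 and 26.6 CPM, the periplakin gene Ppl 6.77 and 8.94 CPM and the tricellular junction gene Marveld2 14.1 and 11.9 CPM. Epcam, a surface marker shared by epithelial and pluripotent cells, averaged 126 and 123 CPM with overlapping groups. Of 27 tested mesenchymal genes of 30, 17 lay above 0 and 10 below, with a median of 0.050. At an unadjusted edgeR p under 0.05 there were 4, 2 in each direction, against 3.99% of all tested genes. Thy1, a surface antigen of fibroblasts and other cells, was at 14.5 ± 1.08 and 10.6 ± 1.44 CPM, while Lox, the collagen cross-linking oxidase, was at 6.35 ± 0.144 and 8.99 ± 1.65 CPM (SD, n = 3 each). The median turned to -0.023 without PDTLN1 library 2 and was 0.10 without PDTLN1 library 3. The mesenchymal list thus held values in both directions, and the fibronectin gene Fn1 averaged 604 and 642 CPM with overlapping groups.

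Among 12 tested intermediate filament genes, partners or relatives of vimentin, the median was -0.0084, with 0 at an unadjusted edgeR p under 0.05. Nestin, Nes, averaged 266 and 317 CPM, Synm 5.99 and 7.46 CPM and Nefm 51.1 and 55.7 CPM. The 20 cofactors and regulators of Snail and Zeb proteins had a median of 0.034. Of them 1, Lats2, had an unadjusted edgeR p under 0.05, against 3.99% of all tested genes. Lats2, a kinase gene of the Hippo pathway, averaged 18.7 and 22.8 CPM, the acetyltransferase gene Ep300 248 and 283 CPM and the corepressor gene Ctbp1 99.5 and 106 CPM. Fbxw7, which encodes a substrate receptor of a ubiquitin ligase and was named after its values were seen, stood at 41.0, 21.6 and 16.8 CPM in controls and 19.8, 36.4 and 45.3 CPM after PDTLN1, high in the libraries in which Zeb2 was high. It was the 1 gene of the 6 lists called when both libraries numbered 1 were left out (log2 fold change 1.08, edgeR adjusted p 0.0332, against 0.36 and 0.989 with all libraries), a comparison of 2 against 2 libraries in which 0.652% of all tested genes were called. In that comparison the treatment and the stress gene division cannot be told apart.

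The genes closest in pattern to the most variable members above 5 CPM were sought among 10709 tested genes at that level, by the root mean square difference of centred log2 CPM over the 6 libraries. For Zeb1 they were Zfhx2, another zinc finger homeobox gene, at 0.091, the hyaluronan-binding protein gene Cemip at 0.093 and the muscarinic receptor gene Chrm2 at 0.12 log2 units. For Cdh11 they were the teneurin gene Tenm2 at 0.078, the acyl-CoA binding gene Acbd6 at 0.080 and Zfp560 at 0.082. Chrm2 stood at 11.9, 9.46 and 9.85 CPM in controls and 12.9, 21.0 and 13.9 CPM after PDTLN1, with PDTLN1 library 2 highest, as for Zeb1. With this many candidates and 6 libraries such likeness is a description of these libraries.

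The genes lie on several chromosomes of build GRCm38, as the table's positions equal those of GENCODE M21 for 7 of the 10. Those of Cdh11, Snai2 and Twist1 differ by at most 900 bases at either end. Cdh1 (ENSMUSG00000000303) spans 106603351 to 106670246 and Cdh11 (ENSMUSG00000031673) 102632995 to 102785111, both on chromosome 8. Vim (ENSMUSG00000026728) spans 13573927 to 13582826, Zeb2 (ENSMUSG00000026872) 44983632 to 45117395 and Snai1 (ENSMUSG00000042821) 167538195 to 167542814 on chromosome 2. Cdh2 (ENSMUSG00000024304) spans 16588877 to 16809246 and Zeb1 (ENSMUSG00000024238) 5591860 to 5775467 on chromosome 18. Snai2 (ENSMUSG00000022676) spans 14705852 to 14709395 on chromosome 16, Twist1 (ENSMUSG00000035799) 33957671 to 33959817 on chromosome 12 and Prrx1 (ENSMUSG00000026586) 163245119 to 163313710 on chromosome 1. In the same orientation, at most 3 of the 36-base words of any of the 10 genes' transcripts recurred in another of the 10. Words shared between the 10 genes in opposite orientation were not counted separately. Snai1 and Twist1 shared none with annotated transcripts of any other gene, on either strand.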

How the data were processed

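Gene counts and FPKM of 3 control and 3 PDTLN1 libraries were used. The columns headed as counts held whole numbers and were used as raw counts. The FPKM deposited by the authors are the counts scaled by a gene length and the library total. Bowtie 0.12.2 and the builds mm8 and mm9 stand in the submitters' processing notes with no role, and counter, annotation and strand setting were not given in the sources used. Of 34267 identifiers shared with GENCODE M21, 80.8% had the same GRCm38 position. The members, lists and tests were chosen with earlier results of these data known.

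Counts were fitted with edgeR 4.0.16 in R 4.3.3 (filterByExpr, TMM, glmQLFit with robust estimation, glmQLFTest; two-sided, Benjamini-Hochberg over 13836 genes, threshold 0.05). Standard errors were the fold change over the root of F, and intervals used the test's degrees of freedom. Alternatives were a replicate block, each library left out, both libraries numbered 1 left out, DESeq2 1.42.0, DESeq2 size factors, library totals only, and weaker and stricter filters. The steps were tested on simulated data. Named besides the 10 genes are the 3 with the smallest p in each list (1 of them is not reported here), the 3 most alike in pattern to Zeb1 and Cdh11, and markers; Ctnnb1, Ctnna1, Epcam, Fn1, Fbxw7 and Pvrl3 were added after their values were seen. List symbols absent from the table were matched by gene identifier.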

Additional observations from a re-analysis of the deposited data

How the results depend on the processing

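None of the 10 genes passed an adjusted p of 0.05 in any of the 13 alternatives, in which their adjusted p ranged from 0.0849 (Zeb2, without both libraries numbered 1) to 1.00. Zeb1 kept a log2 fold change of 0.38 to 0.73, Prrx1 0.45 to 0.79 and Cdh11 0.22 to 0.48, and Snai1 ranged from -1.09 to -0.10. Without both libraries numbered 1, the treatment and the stress gene division cannot be told apart. The sign of Cdh1 turned without control library 1 (-0.020) and without both libraries numbered 1 (-0.025), and that of Twist1 without control library 1 (0.064) and without PDTLN1 library 3 (0.12), in a range of -0.17 to 0.12. The number of all genes called, 3, was 1 with the replicate block, 2 to 13 when 1 library was left out (13 without control 1, 5 without control 3, 8 without PDTLN1 1 and 6 without PDTLN1 2), 91 without both libraries numbered 1, 14 with DESeq2 and 8 with no filter beyond 1 count. The lists' count, 0, became 1 without both libraries numbered 1 (Fbxw7, higher) and 1 without PDTLN1 library 2 (the nectin gene Pvrl3, lower, log2 fold change -1.08, edgeR adjusted p 0.0136). The epithelial median, 0.011, was 0.066 without control library 2, and the intermediate filament median, -0.0084, was 0.080 without PDTLN1 library 1. The cause was not tested. Libraries with the same number did not share deviations from their group means (correlation across genes -0.36, -0.14 and -0.10 for numbers 1 to 3). The libraries numbered 1 lie on opposite sides of the stress gene division, so these values cannot show whether same-numbered libraries were handled together. The numbers were not used as pairs in the main fit, and the replicate block called 0 of the 10 genes. Depth limits Snai1, Snai2 and Prrx1 most, at 15 to 50 counts per library.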
